A study of Mus musculus with 4 samples.

Results

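The receptors described here are T-cell receptors whose beta chain uses TRBV3, TRBV4, TRBV14 or TRBV29, which are 4 of the V segments of the mouse T-cell receptor beta locus. A member was a TRB contig with one of these V segments that was high-confidence, full-length and productive in a called cell of any of the 4 libraries. There were 2005 such contigs among 13709 productive TRB contigs (14.6%), and they lay in 1952 of 13057 cells with a productive TRB. TRBV3 had 760 contigs, TRBV4 483, TRBV14 297 and TRBV29 465. No contig in the tables carried the name TRBV4. The contigs named TRBV10 were taken as TRBV4, because all 483 had a V region identical to the TRBV4 segment of the RefSeq mouse annotation and 0 were identical to its TRBV10.

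A T-cell receptor beta chain is made by joining a V, a D and a J segment, and the alpha chain by joining a V and a J segment. The V segment alone encodes the loops called CDR1 and CDR2, while CDR3 spans the junction, where bases are trimmed from the segment ends and others are inserted before joining. CDR1 and CDR2 mostly touch the MHC molecule and CDR3 mostly touches the peptide it presents, so V segments differ in the receptors they can form even before any selection.

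The cells came from pancreatic islets of 2 genotypes of mice. Tet2KO NOD mice lack Tet2, which converts methylated cytosines of DNA to oxidised forms, and carry the Tet2 deletion (Tet2-/-) that was bred from B6 stock into NOD over more than 14 generations. NOD mice, the comparison group, are non-obese diabetic mice, a strain that develops autoimmune diabetes without treatment. Each genotype had 2 libraries, sets 1 and 2, each from pooled islets of 4 to 6 mice. The mice are given as 10 to 13 weeks of age in one place and as that many weeks "post BTM" in another, and bone marrow transplant is mentioned, so age and any transplant were not settled here. Replicates were therefore pools and the cells of single mice within a pool were not told apart.

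The libraries held 1909 and 1630 cells with a productive TRB in Tet2KO NOD pools, against 6683 and 2835 in NOD pools. The median TRB contig had 10 to 13 UMIs (unique molecular identifiers, which count captured molecules) in each library. The label of islet T cells could not be checked here, because the libraries are labelled as single-cell T-cell receptor sequencing and give receptor chains only. In them 0 called cells had a productive gamma or delta chain and 0 contigs came from immunoglobulin loci. Libraries of this kind may give such counts whatever cells were loaded. Pairs of libraries shared 4 to 29 cell barcodes, 1 shared barcode had a member in both libraries, and 2 held the same TRB.

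All 4 segments lie on the plus strand of chromosome 6 in GRCm38, upstream of the D and J segments. TRBV3 is at chr6:41048394-41048824 and its neighbours are TRBV2 and TRBV4. TRBV4 is next to it at chr6:41059443-41059886, with TRBV5 on its other side. TRBV14 is at chr6:41135167-41135616 between TRBV13-3 and TRBV15. TRBV29 is at chr6:41271403-41271881 between TRBV28 and TRBV30. It is the nearest of the 4 to the first D segment TRBD1, at 261 kb, against 484 kb for TRBV3, 473 kb for TRBV4 and 398 kb for TRBV14. The older V beta numbers are 16 for TRBV3, 10 for TRBV4, 13 for TRBV14 and 7 for TRBV29. RefSeq lists TRBV29 as a V segment pseudogene, whereas its 465 contigs here were full-length and productive.

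The germline loops show that the members are not near copies of each other, and the germline bases that enter CDR3 carry the result on TRBV4. Over the V region, identity between members was 48.7% (TRBV14 and TRBV29) to 56.6% (TRBV3 and TRBV4). Every member contig matched its own RefSeq segment over the 270 or 273 bases compared, so no base difference from RefSeq was seen in those bases. The sequences below are from RefSeq, GRCm38. In the germline 3′ ends, which begin at the codon of the cysteine that opens CDR3, capitals mark the fifth codon.
TRBV3 CDR1: tctaatcacctatat
TRBV3 CDR2: ttctacaatggtaaagtc
TRBV3 germline end: tgtgccagcagcTTAgc
TRBV4 CDR1: ctgggccacgatact
TRBV4 CDR2: tacaataataagcaactc
TRBV4 germline end: tgtgccagcagcTAAga
TRBV14 CDR1: tctggacatgatacc
TRBV14 CDR2: tttcgggatgaggctgtt
TRBV14 germline end: tgtgccagcagtTTCt
TRBV29 CDR1: atgagccatgaaaca
TRBV29 CDR2: tcatacgatgttgatagt
TRBV29 germline end: tgtgctagcagtTTAtc
In these ends the fifth codon of TRBV4 is a stop codon. It was the only stop in frame among the ends of the TRBV segments named in the tables whose germline end was read.

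For the comparisons, cells with more than 1 productive TRB were left out, a cell was paired when it also had a TRA, and cells of a library were placed in one clonotype when both chains had the same V and J segments and the same CDR3 nucleotides. The 4 segments had 978 of 7179 clonotypes (13.6%), of which TRBV3 had 334, TRBV4 193, TRBV14 167 and TRBV29 284. Of the cells with 1 TRB, 219 had no TRA and entered no clonotype. Of the contigs in the tables, 249 lay in cells with more than 1 TRB: 148 TRBV3 contigs (19.5% of that segment's), 38 TRBV4 (7.87%), 30 TRBV14 (10.1%) and 33 TRBV29 (7.10%), where the share over all TRBV was 9.51%. TRBV3 was above that share in every library, at 15.1% and 15% in Tet2KO NOD pools, against 24.1% and 13.9% in NOD pools. In NOD 1, 56 of the 95 TRBV3 contigs so counted came from 28 cells that held the same pair of TRBV3 chains, and without those cells the share was 11.5% in NOD 1 and 13.1% over all libraries. Those shares still count other recurrent pairs with a TRBV3 chain, in 13 cells of NOD 1 and 7 cells of Tet2KO NOD 1. Part of the TRBV3 excess thus came from a few recurrent pairs.

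TRBV3 was the most used of the 4 in every library and TRBV14 the least. TRBV3 made up 5.34% and 5.14% of the clonotypes in the Tet2KO NOD libraries, against 4.42% and 4.49% in the NOD libraries. TRBV29 made up 4.56% and 3.93% in Tet2KO NOD pools, against 3.98% and 3.60% in NOD pools. The order of the segments was the same in all 4 libraries, with TRBV29 below TRBV3 and above the other 2. TRBV4 made up 2.45% and 3.32% in Tet2KO NOD pools, against 2.56% and 2.72% in NOD pools. TRBV14 made up 2.34% and 2.32% in Tet2KO NOD pools, against 2.28% and 2.42% in NOD pools. TRBV4 was above TRBV14 in each library, by 0.111 to 1.01 percentage points. For each of the 6 pairs the exact two-sided sign-flip test over the 4 libraries gave p = 0.125 (adjusted over the 6 pairs, 0.125), which is the smallest p that 4 libraries allow.

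TRBV3 was the member whose share of clonotypes did not overlap between genotypes, at 5.24% ± 0.14 in Tet2KO NOD and 4.46% ± 0.046 in NOD (SD, n = 2 each). Its exact permutation p was 0.333, the smallest that 2 pools against 2 can give, so no such test here could pass 0.05. Over the 20 TRBV segments with at least 40 clonotypes, 25% did not overlap between genotypes in this share. The Wilson 95% intervals of the libraries, which cover counting error only, ran from 4.05% to 7.01% in Tet2KO NOD 1 and from 3.80% to 5.15% in NOD 1, and so overlapped. The difference was 0.781 percentage points over all pools, 0.915 within set 1 and 0.647 within set 2. It was 0.116 points when cells were counted in place of clonotypes.

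Counted over cells, TRBV29 stood apart in one library. It had 6.67% and 3.02% of the paired cells in Tet2KO NOD pools, against 2.98% and 2.95% in NOD pools. The high value was that of Tet2KO NOD 1, and the other 3 libraries lay between 2.95% and 3.02%. Its genotypes did not overlap (exact permutation p = 0.333), as was so for 20% of the 20 TRBV segments, and those of the other 3 members overlapped. The plot of shares of clonotypes and cells by library shows both measures.

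**Figure D1:**
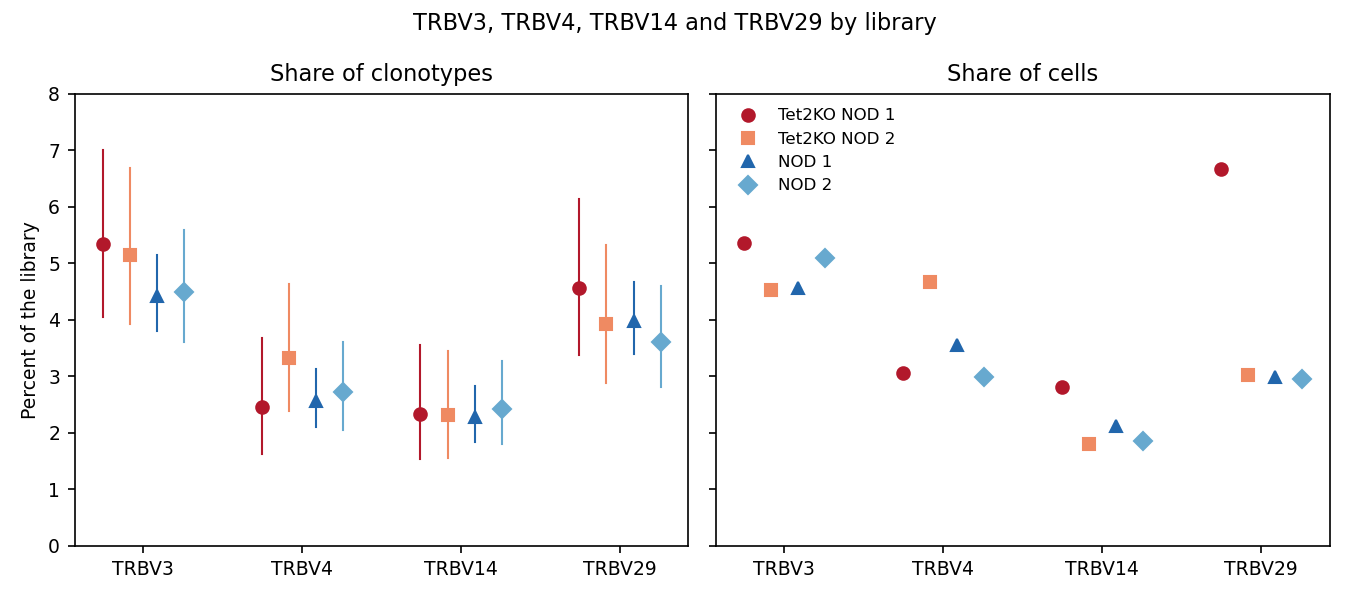
Percent of a library's clonotypes and of its paired cells that used each segment, with 1 point for each library and the Tet2KO NOD libraries left of the NOD libraries; vertical lines on the clonotype shares are Wilson 95% intervals. TRBV3 is highest and TRBV14 lowest in clonotypes, and TRBV29 reaches 6.67% of the cells of Tet2KO NOD 1.

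The same question was asked of all segments of both chains in one fit. With edgeR's quasi-likelihood test on clonotype counts, 1 of 124 segments (0.806%) passed an adjusted p of 0.05 between Tet2KO NOD and NOD, and 0 of the 4 members did. The log2 fold changes (Tet2KO NOD over NOD) were 0.23 for TRBV3 (SE 0.18), 0.15 for TRBV4 (SE 0.25), 0.00 for TRBV14 (SE 0.29) and 0.14 for TRBV29 (SE 0.20), each with an edgeR adjusted p of 0.992. At an unadjusted p under 0.05 the count of members was 0, and with DESeq2 it was 0.

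TRBV4 differed from the other 3 in its junctions. A CDR3 that kept 15 germline bases of TRBV4 in frame would hold the stop codon shown above, and contigs flagged productive hold none, so the most bases a productive TRBV4 junction could keep was 14. In the data 0 of 193 TRBV4 clonotypes kept 15 or more bases, and 0 of all 801 productive TRBV4 contigs, whatever their other flags, did. TRBV3 kept 15 or more in 140 of 334 clonotypes (41.9%), TRBV14 in 40 of 167 (24.0%) and TRBV29 in 72 of 284 (25.4%). The mean number kept was 12.2 for TRBV4, 13.9 for TRBV3, 13.0 for TRBV14 and 12.9 for TRBV29. The most frequent TRBV4 class was 12 bases, ending just before the stop codon, at 40.9%. That peak was not particular to TRBV4: 12 bases was also the most frequent class of TRBV3 (27.8%) and TRBV29 (18.7%), and 11 bases that of TRBV14 (25.7%). The choice of productive contigs sets this limit for TRBV4, so no test of the bases kept is given. A base of CDR3 was called kept while it matched the germline end without a break, so an inserted base that happens to match counts as kept.

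**Figure D2:**
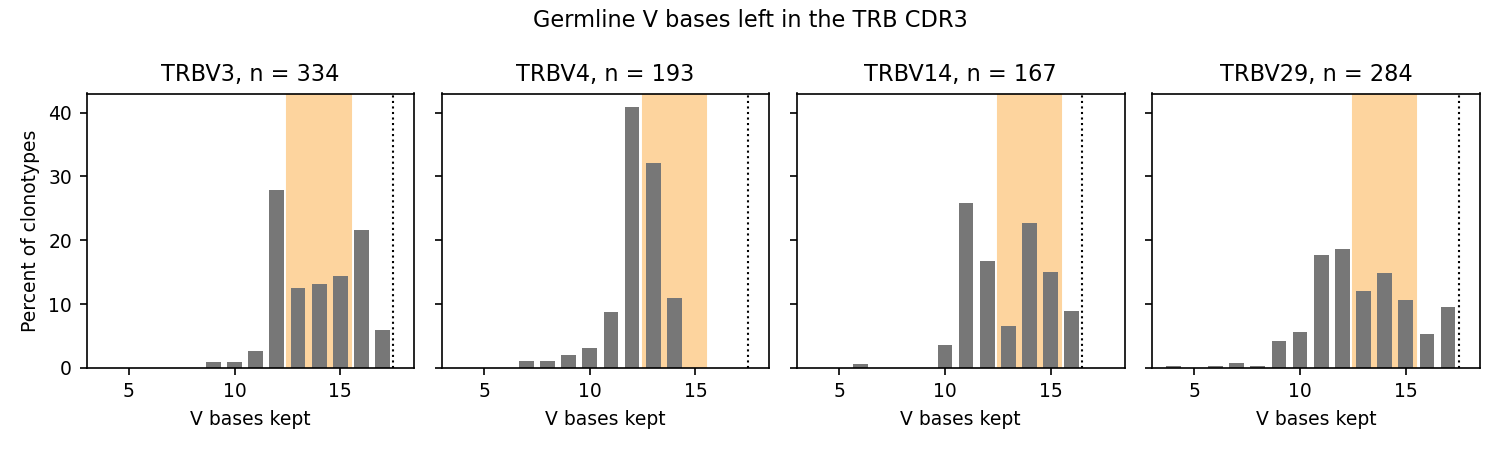
Percent of each segment's clonotypes (4 libraries together) by the number of germline V bases kept in the TRB CDR3; the shaded band spans the fifth codon (bases 13 to 15) and the dotted line marks the end of the germline segment. TRBV4 has no bar at 15 bases or beyond, while TRBV3, TRBV14 and TRBV29 have 41.9%, 24.0% and 25.4% of their clonotypes there.

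TRBV4 junctions also had more bases that matched neither V nor J germline, here called inserted, which include D-segment bases. The limit of 14 kept V bases holds for these junctions too, and its part in the number of inserted bases was not tested. Their mean number was 11.8 and 10.8 in the Tet2KO NOD libraries, against 10.9 and 11.3 in the NOD libraries. All other TRBV of the same libraries had 9.89 and 10.2 in Tet2KO NOD pools, against 10.1 and 10.4 in NOD pools, and TRBV4 was above them in all 4. With limma over 19 TRBV segments, each library's other TRBV as its comparison, TRBV4 had 0.938 more inserted bases (SE 0.302, adjusted p = 0.0185), where 21.1% of the segments passed. The adjusted p was 0.277 with each cell counted once, 0.102 without NOD 1 and 0.156 without NOD 2. The other members did not pass: TRBV3 had a difference of 0.0415 bases (SE 0.241, limma adjusted p = 0.875), TRBV14 of 0.507 (SE 0.323, 0.210) and TRBV29 of 0.284 (SE 0.248, 0.349). Between members, TRBV4 had more inserted bases than TRBV14 and than TRBV29 in 4 of 4 libraries, by means of 0.649 and 0.819 bases (exact sign-flip p = 0.125 each, adjusted over the 6 pairs 0.250).

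Contigs of TRBV4 were more often nonproductive than those of the other members. Of its high-confidence contigs with a V and a J segment in called cells, 26.5% and 24.8% were nonproductive in Tet2KO NOD pools, against 23.5% and 37.4% in NOD pools. The TRBV segments outside the 4 members had 8.95% and 8.88% in Tet2KO NOD pools, against 10.9% and 10.1% in NOD pools. TRBV4 was higher in 4 of 4 libraries, by 18.3 points on average (SD 6.34, exact sign-flip p = 0.125, the smallest possible). Over all libraries the share was 179 of 662 (27.0%) for TRBV4, 10.6% for TRBV3, 11.9% for TRBV14, 8.82% for TRBV29 and 10.2% for the others. TRBV4 ranked 3 of 20 TRBV segments, after TRBV23 and TRBV12-1. The tables gave no CDR3 for 97 of the 179 nonproductive TRBV4 contigs (54.2%), 17.8% of those of TRBV3, 45% of those of TRBV14, 66.7% of those of TRBV29 and 41.8% of those of the others. Of the 82 with a CDR3, 1 kept 15 or more germline bases of TRBV4. Among full-length contigs alone the nonproductive share was 17.7% for TRBV4, 10.4% for TRBV3, 8.90% for TRBV14, 6.06% for TRBV29 and 6.99% for the others. Among these contigs TRBV4 was not the highest of the members in Tet2KO NOD 2, with 16.5% beside 17.5% for TRBV14. Nonproductive contigs of the members had a median of 2 UMIs.

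J segments of the TRBJ2 cluster led in every member, as they did in the other TRBV (mean share of TRBJ2-7 20.4% and of TRBJ2-5 12.2%). By mean share over the libraries, TRBJ2-7 was the most used J segment of TRBV3 (26.3% ± 5.4, SD over the 4 libraries), of TRBV4 (20.8% ± 8.1) and of TRBV29 (18.4% ± 3.4), while TRBJ2-5 led in TRBV14 (16.9% ± 4.3). By count TRBJ2-7 led in TRBV14 too, with 28 clonotypes against 26 with TRBJ2-5. The next were TRBJ2-3 and TRBJ2-5 for TRBV3 (12.1% and 11.1%), TRBJ2-1 and TRBJ2-5 for TRBV4 (17.6% and 16.1%), TRBJ2-7 and TRBJ2-4 for TRBV14 (15.6% and 11.6%), and TRBJ2-5 and TRBJ2-3 for TRBV29 (15.8% and 10.9%). The TRBJ1 cluster, upstream of the TRBJ2 cluster, served 93 of 334 clonotypes of TRBV3 (27.8%), 41 of 193 of TRBV4 (21.2%), 48 of 167 of TRBV14 (28.7%), 110 of 284 of TRBV29 (38.7%) and 33.5% of those of the other TRBV. TRBV29 was the member with the highest TRBJ1 share over all libraries.

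TRBV14 was not found joined to TRBJ1-2. It had 0 clonotypes with TRBJ1-2 of 21 and 23 in Tet2KO NOD pools, against 0 of 82 and 41 in NOD pools. That is 0 of 167 in all, which allows a share of up to 1.80%. The other TRBV joined TRBJ1-2 in 5.08% and 5.31% of their clonotypes in Tet2KO NOD pools, against 5.13% and 5.04% in NOD pools. The TRBV14 totals of 21, 23 and 41 clonotypes are too small for a 0 to set those libraries apart from these shares. Over all libraries the TRBV14 share was at least 2.85-fold lower than the 318 of 6201 (5.13%) of the other TRBV. For this limit 3 counts over the group were taken as the limit of a count of 0.

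The members differed in this pairing. TRBV3 had TRBJ1-2 in 26 of 334 clonotypes, TRBV29 in 22 of 284 and TRBV4 in 3 of 193. TRBV4 was thus low too, with 0 and 0 in Tet2KO NOD pools, against 1 and 2 in NOD pools. Its log2 fold change against the other TRBV was -1.70 (SE 0.71, edgeR adjusted p = 0.310). TRBJ1-2 did not pass for TRBV4 against TRBV14. Of the 541 TRBV14 contigs of any flag with a J segment, 0 had TRBJ1-2, which occurred in 1528 contigs over all TRBV. From the TRBJ1-2 share of all clonotypes, 8.58 TRBV14 clonotypes would have had it. Of 217 pairs of a TRBV and a TRBJ with more than 5 clonotypes so computed, TRBV14 with TRBJ1-2 was the only one at 0, a count made after the value was seen. A low TRBJ1-2 count was also found outside the members, since TRBV5 had 12 clonotypes with it where 38.2 were so computed.

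One edgeR fit tested 52 partners (TRBJ segments, TRAV families and TRAJ segments) of each member against the other TRBV, with the library as a block. For TRBV14, 1 of 52 partners passed (1.92%), TRBJ1-2 with adjusted p = 0.0122. Between members, 1 of 52 passed for TRBV3 against TRBV14 (1.92%) and 1 of 52 for TRBV14 against TRBV29 (1.92%), both TRBJ1-2 and lower in TRBV14, with an edgeR adjusted p of 0.0038 each. For the other 4 pairs of members 0 of 52 passed (0%), with 3 to 6 at an unadjusted p under 0.05 and 0 with DESeq2. The adjusted p of TRBV14 against the other TRBV was 0.0701 with DESeq2, 0.250 with each cell counted once, 0.0632 without Tet2KO NOD 2, 0.141 without NOD 1 and 0.112 without NOD 2. Against TRBV3 and against TRBV29 it was 0.185 without NOD 1, and with each cell counted once 0.136 and 0.164.

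**Figure D3:**
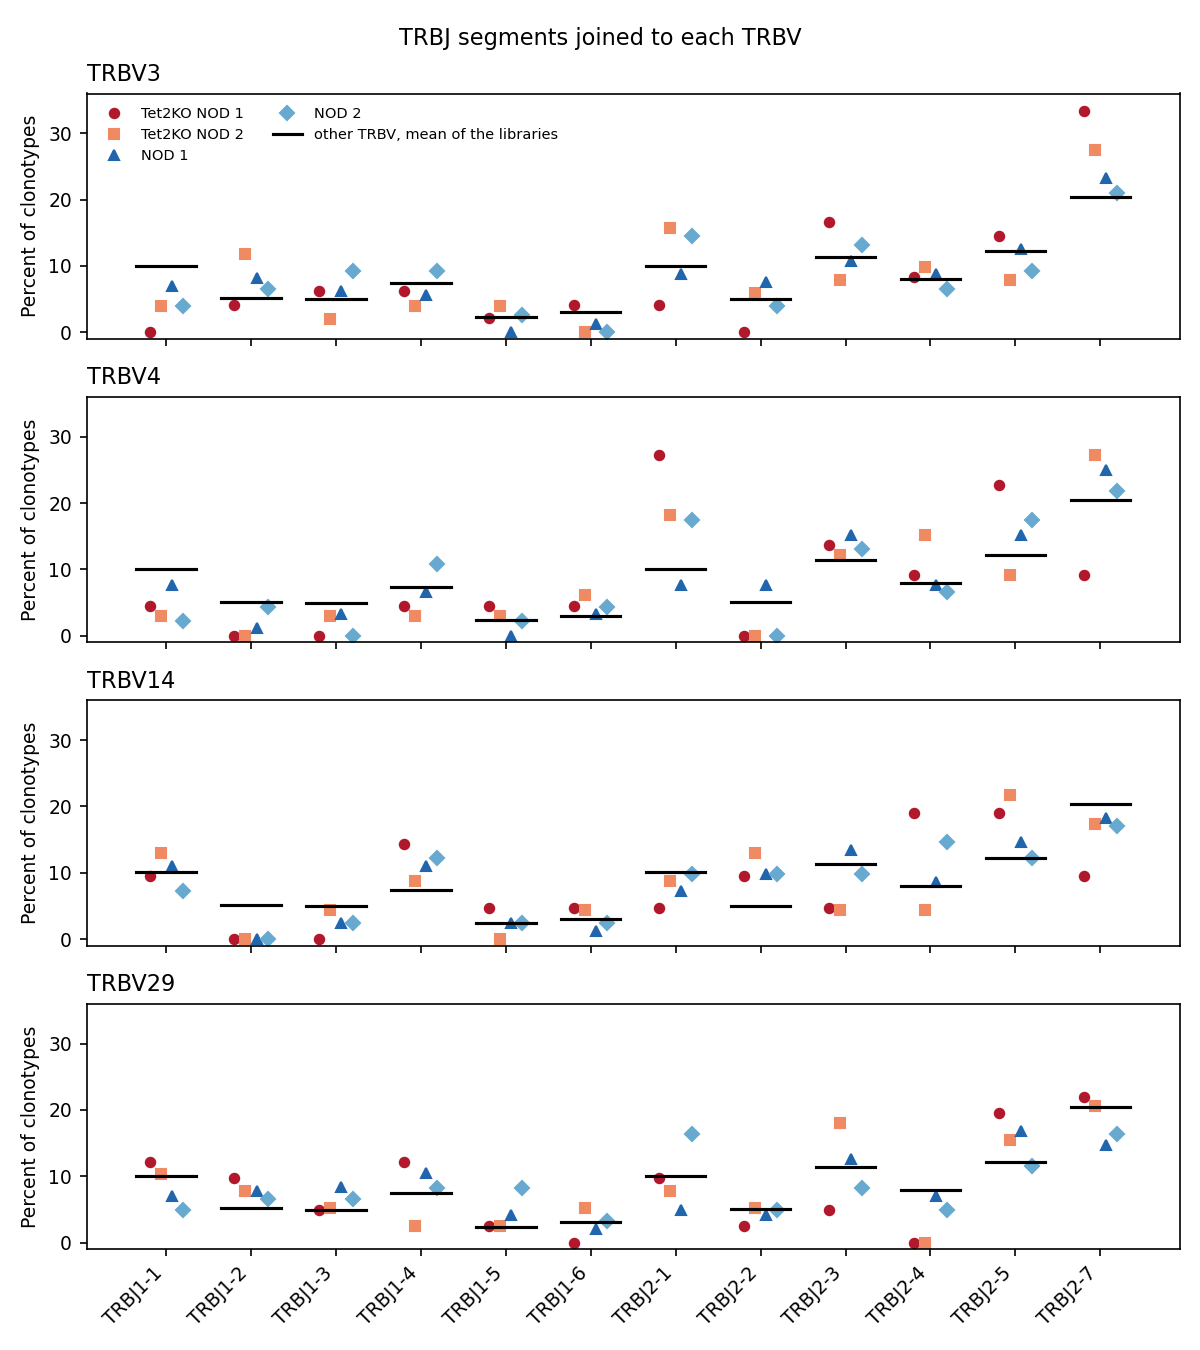
Percent of clonotypes with each TRBJ segment for the 4 members and the other TRBV, with 1 point for each library and Tet2KO NOD left of NOD. The TRBV14 points for TRBJ1-2 lie at 0 in all 4 libraries (of 21 to 82 clonotypes each), while the other TRBV had 5.04% to 5.31%.

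By total variation distance between TRBJ shares (the percent of clonotypes that would have to change J, over 19 other TRBV), TRBV3 was most like TRBV13-3 (9.02%) and the segment named TRBV12-2+TRBV13-2 (12.6%). TRBV4 was most like its neighbour TRBV5 (10.9%) and TRBV19 (15.2%), TRBV14 most like TRBV16 (14.7%) and TRBV5 (16.5%), and TRBV29 most like TRBV12-2+TRBV13-2 (8.57%) and TRBV31 (11.1%). No member was among the 2 most alike of another. Counting noise raises this distance for segments with few clonotypes and was not corrected for, so these ranks may partly follow the size of a segment.

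On the alpha side, TRBV3 was paired with the TRAV16 family more often than the other TRBV were. TRAV16 chains occurred in 5 of 48 (10.4%) and 9 of 51 (17.6%) TRBV3 clonotypes in Tet2KO NOD pools, against 16 of 159 (10.1%) and 8 of 76 (10.5%) in NOD. The other TRBV had 5.22% and 5.55% in Tet2KO NOD pools, against 4.87% and 5.45% in NOD pools. TRBV3 was higher in 4 of 4 libraries, with Tet2KO NOD 2 the highest. The log2 fold change was 1.14 (SE 0.29, edgeR adjusted p = 0.0122), the 1 partner of 52 that passed for TRBV3 (1.92%). The adjusted p ranged from 0.0101 to 0.783 over the alternatives: it was 0.161 without Tet2KO NOD 2, 0.0862 without NOD 1, 0.0877 without NOD 2 and 0.783 with each cell counted once.

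These 38 TRBV3 clonotypes were varied. All were named TRAV16N, and they used 17 TRAJ and 10 TRBJ segments and 37 distinct TRB CDR3 sequences. TRAJ42 was in 7 of them (18.4%), against 50 of the 357 TRAV16 clonotypes of all TRBV other than TRBV3 (14.0%). Without TRAJ42 the TRAV16 share of TRBV3 was 6.25% and 13.7% in Tet2KO NOD pools, against 8.81% and 9.21% in NOD pools, and the other TRBV had 4.17% to 4.96%. Of the 38, 9 were expanded, that is of 2 or more cells (23.7%), against 15.5% of the TRBV3 clonotypes with other TRAV.

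By mean share over the libraries, the most used TRAV families of TRBV3 were TRAV7 (15.1% ± 2.6, SD over the 4 libraries), TRAV6 (14.7% ± 3.4) and TRAV16 (12.2% ± 3.7). Those of TRBV4 were TRAV6 (15.1% ± 4.4), TRAV9 (14.2% ± 6.3) and TRAV7 (12.9% ± 5.2). TRBV14 used TRAV6 (17.5% ± 7.3), TRAV5 (12.3% ± 3.5) and TRAV7 (9.33% ± 5.2) most, and TRBV29 used TRAV7 (14.5% ± 3.3), TRAV13 (12.2% ± 5.5) and TRAV14 (10.6% ± 2.3). TRAV7 was among the 3 most used families of every member, as it was in the other TRBV. Those used TRAV6 (15.1%), TRAV5 (12.1%) and TRAV7 (11.9%) most. The leading TRAJ segments by mean share were TRAJ57, TRAJ42 and TRAJ31 for TRBV3 (6.22% to 6.53%), TRAJ18, TRAJ26 and TRAJ32 for TRBV4 (5.90% to 9.66%), TRAJ37, TRAJ34 and TRAJ48 for TRBV14 (6.56% to 10.2%) and TRAJ40, TRAJ18 and TRAJ48 for TRBV29 (5.30% to 8.83%). By count TRAJ49 was in more TRBV3 clonotypes (20) than TRAJ57, TRAJ42 or TRAJ31 (18 each).

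For TRBV4 and for TRBV29, 0 of 52 partners passed against the other TRBV (0% each) with edgeR, although 7 and 4 had an unadjusted p under 0.05. The partners nearest to the threshold were TRAJ18 with TRBV4 (19 clonotypes, log2 fold change 1.30, SE 0.43, edgeR adjusted p = 0.0934) and TRAV5 with TRBV4 (10 clonotypes, log2 fold change -1.19, SE 0.38, adjusted p = 0.0934). TRAJ34 with TRBV14 (14 clonotypes, 1.59, SE 0.53, edgeR adjusted p = 0.0934) and TRBJ1-1 with TRBV3 (16 clonotypes, -1.05, SE 0.31, adjusted p = 0.0817) also missed it. DESeq2 put TRAJ18 with TRBV4 at an adjusted p of 0.0368 and TRAJ34 with TRBV14 at 0.0336, and edgeR with TMM factors put TRAV5 with TRBV4 at 0.0147.

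TRBV29 carried the alpha chain of invariant natural killer T cells, which recognise lipids on CD1d and in mice join TRAV11 to TRAJ18 with little variation. Of the 24 clonotypes with TRAV11 and TRAJ18 in all 4 libraries, 9 used TRBV29 (37.5%), whereas 3.96% of all clonotypes used TRBV29. They were 2 and 3 clonotypes in Tet2KO NOD pools, against 4 and 0 in NOD pools, and each was a single cell. TRBV3, TRBV4 and TRBV14 had 0. In the test against the other TRBV the TRAV11 family was below the minimum of 20 clonotypes over the members, and without that filter it was called for TRBV29 (log2 fold change 3.05, SE 0.73, edgeR adjusted p = 0.0088). Pairing of this alpha chain with TRBV29, the older V beta 7, is known in mice.

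The alpha chains of these 24 clonotypes are shown because all CDR3 of 45 bases had 1 of 4 nucleotide versions that differ at a single base, in capitals, and encode 1 amino acid sequence.
TRAV11-TRAJ18, 4 clonotypes, 3 with TRBV29: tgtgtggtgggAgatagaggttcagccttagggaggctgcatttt
TRAV11-TRAJ18, 9 clonotypes, 3 with TRBV29: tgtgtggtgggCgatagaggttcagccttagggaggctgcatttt
TRAV11-TRAJ18, 10 clonotypes, 2 with TRBV29: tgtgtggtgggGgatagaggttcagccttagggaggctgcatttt
TRAV11-TRAJ18, 1 clonotype, 1 with TRBV29: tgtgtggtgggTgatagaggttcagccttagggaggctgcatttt
Mucosal-associated invariant T cells, marked by TRAV1 with TRAJ33, were 0 among the members and 5 clonotypes among the other TRBV.

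The TRAV16 family with TRAJ42 is known from NOD CD8 T cells that recognise the islet protein IGRP. It occurred in 57 clonotypes, of which TRBV13-3 had 26, TRBV3 7, TRBV4 4, TRBV14 1 and TRBV29 0. The TRBV3 clonotypes were 2 and 2 in Tet2KO NOD pools, against 2 and 1 in NOD pools, with 21 cells in all. The 4 TRBV4 clonotypes were all in NOD 1 and held 53 cells, 13.7% of the TRBV4 cells. Of the TRBV3 clonotypes 6 of 7, and of the TRBV4 clonotypes 3 of 4, joined TRBJ2-7 with a TRB CDR3 of 39 bases and a TRA CDR3 of 45 bases. The 1 TRBV14 clonotype did not, and 0 of 45 clonotypes of TRBV outside the members had all of these. Singly, 17 of the 45 had TRBJ2-7, 8 the TRB length and 33 the TRA length. The combination was read from the TRBV3 and TRBV4 clonotypes themselves, so this contrast is no test.

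The largest of these beta chains are printed to show that their junctions differ. Capitals mark bases that match neither the V nor the J germline end.
TRBV4-TRBJ2-7, NOD 1, 26 cells: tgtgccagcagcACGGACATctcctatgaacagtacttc
TRBV4-TRBJ2-7, NOD 1, 24 cells: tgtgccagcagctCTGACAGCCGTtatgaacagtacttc
TRBV3-TRBJ2-7, NOD 1, 10 cells: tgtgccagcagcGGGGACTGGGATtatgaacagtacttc
TRBV3-TRBJ2-7, Tet2KO NOD 2, 3 cells: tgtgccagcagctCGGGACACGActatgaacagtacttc
TRAV5, a family known from insulin-reactive T cells of NOD mice, was in 30 of 334 clonotypes of TRBV3 (8.98%), 10 of 193 of TRBV4 (5.18%), 20 of 167 of TRBV14 (12.0%), 20 of 284 of TRBV29 (7.04%) and 11.8% of those of the other TRBV.

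Among the members, TRBV29 stood out in the middle of CDR3. Hydropathy of residues 6 and 7, on the Kyte-Doolittle scale where lower values are more polar, averaged -1.35 and -1.71 for TRBV29 in Tet2KO NOD pools, against -1.69 and -1.80 in NOD. In the other TRBV outside the 4 members it was -1.25 and -1.14 in Tet2KO NOD pools, against -1.14 and -1.14 in NOD. TRBV29 was lower in all 4 libraries, least so in Tet2KO NOD 1. The limma difference over 20 TRBV was -0.512 (SE 0.0947, adjusted p = 1.16e-05), where 45% of the segments passed. Lower hydropathy was not particular to TRBV29. It also passed with limma for TRBV2 (-0.380, adjusted p = 3.39e-05), TRBV5 (-0.307, 1.40e-05), TRBV13-3 (-0.251, 0.00762) and TRBV1 (-0.211, 0.0112). With each cell counted once the TRBV29 difference was -0.176 with a limma adjusted p of 0.505. TRBV3, TRBV4 and TRBV14 did not pass, with differences of 0.0654, 0.0615 and -0.0973 and limma adjusted p of 0.534, 0.626 and 0.534.

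Arginine, a charged residue at the polar end of that scale, was frequent there in TRBV29. It stood at position 6 or 7 in 24.4% and 41.0% of TRBV29 clonotypes in Tet2KO NOD pools, against 37.1% and 47.5% in NOD pools. The other TRBV had 18% and 17.2% in Tet2KO NOD pools, against 16.6% and 17.2% in NOD pools, so TRBV29 was higher in each library, least so in Tet2KO NOD 1. Over all libraries arginine stood there in 108 of 284 TRBV29 clonotypes (38%), 18.6% of TRBV3, 19.2% of TRBV4, 23.4% of TRBV14 and 17.0% of the other TRBV. A charged residue of any kind stood there in 31.7% and 56.4% of TRBV29 clonotypes in Tet2KO NOD pools, against 51.0% and 55.7% in NOD pools. The other TRBV had 41.3% and 37.5% in Tet2KO NOD pools, against 39.6% and 38.1% in NOD pools. By that count TRBV29 was thus lower than they were in Tet2KO NOD 1. The count of arginine was chosen after the hydropathy was seen, and neither count was tested.

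CDR3 length did not separate the members from the other TRBV. Means in amino acids were 14.2 and 14.3 for TRBV3 in Tet2KO NOD pools, against 13.8 and 14.2 in NOD pools, and 13.4 and 13.7 for TRBV14 in Tet2KO NOD pools, against 14.0 and 14.1 in NOD pools. For TRBV4 they were 14.0 and 13.8 in Tet2KO NOD pools, against 13.7 and 14.2 in NOD pools, and for TRBV29 13.8 and 13.6, against 13.8 and 14.0. With limma over 20 TRBV, of which 35% passed, differences from the other TRBV lay between -0.158 (TRBV29, SE 0.0981, adjusted p = 0.224) and 0.0255 residues (TRBV3, SE 0.0905, adjusted p = 0.779).

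Between genotypes, the libraries of Tet2KO NOD and NOD did not overlap for 9 of 16 combinations of a member and a measure. In length these were TRBV3 (longer in Tet2KO NOD), TRBV14 and TRBV29 (shorter), where 45% of 20 TRBV did not overlap. In inserted bases they were TRBV14 and TRBV29, both with fewer in Tet2KO NOD (36.8% of 19 TRBV did not overlap). In hydropathy they were TRBV3 (higher in Tet2KO NOD) and TRBV14 (lower), beside 40% of 20 TRBV, and in the share of expanded clonotypes TRBV3 (lower in Tet2KO NOD) and TRBV4 (higher), beside 35%. The exact permutation p was 0.333 for each, the smallest possible, and the count of 9 fell to 4 when clonotypes were defined by TRB alone.

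**Figure D4:**
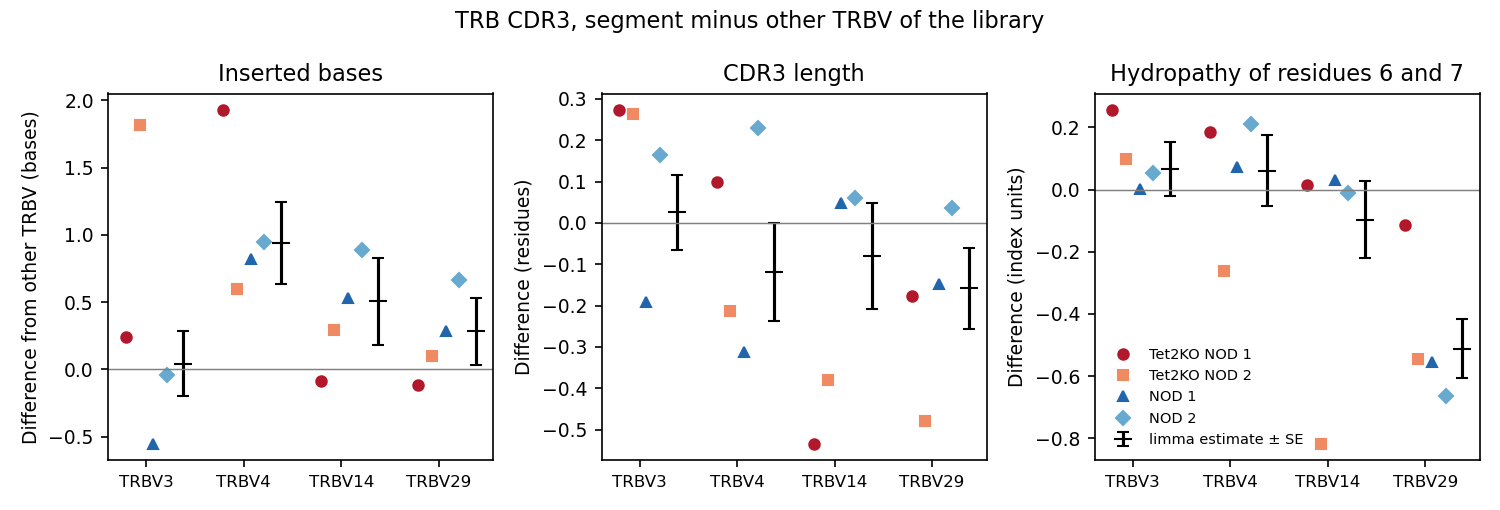
Each segment's value minus that of the other TRBV of the same library, for CDR3 length in amino acids, inserted bases and hydropathy of residues 6 and 7, with 1 point for each library and Tet2KO NOD left of NOD. TRBV29 lies below 0 in hydropathy in all 4 libraries, and TRBV14 lies below 0 in length in the Tet2KO NOD libraries and above it in the NOD libraries.

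Most clonotypes of every member were single cells: 83.5% of TRBV3, 82.9% of TRBV4, 86.8% of TRBV14, 89.1% of TRBV29 and 85.7% of the other TRBV. The share expanded was 12.5% and 15.7% for TRBV3 in Tet2KO NOD pools, against 17.0% and 18.4% in NOD pools. For TRBV4 it was 27.3% and 18.2% in Tet2KO NOD pools, against 15.2% and 15.2% in NOD pools. For TRBV14 it was 14.3% and 8.70%, against 17.1% and 7.32%. For TRBV29 it was 24.4% and 7.69% in Tet2KO NOD pools, against 7.69% and 11.5% in NOD pools, so Tet2KO NOD 1 alone was high. The other TRBV had 18.9% and 15.1% in Tet2KO NOD pools, against 13.4% and 13.1% in NOD pools. With limma, 20% of 20 TRBV passed and the members did not, with differences from the other TRBV of 2.16 points for TRBV3 (SE 1.93, adjusted p = 0.415), 2.92 for TRBV4 (SE 2.54, 0.415), -1.13 for TRBV14 (SE 2.73, 0.800) and -3.61 for TRBV29 (SE 2.09, 0.225).

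Over all libraries together, clonotypes of 10 or more cells held a larger share of the cells of TRBV4 than of the other members, but not in each library. TRBV4 had 8 among 193 clonotypes (4.15%), and these held 147 of its 386 cells (38.1%). They were 1 and 2 in Tet2KO NOD pools, against 4 and 1 in NOD pools, so every library had at least 1. TRBV3 had 5 (21.6% of its cells), TRBV14 3 (17.1%), TRBV29 3 (16.2%) and the other TRBV 79 of 6201 (1.27%, 16.7% of their cells). By library, the share of TRBV4 cells in such clonotypes was 28.6% and 38.5% in Tet2KO NOD pools, against 48.0% and 17.6% in NOD pools, and NOD 1 gave 95 of the 147 cells. In Tet2KO NOD 1 it was the lowest of the 4, below TRBV3 (37.2%), TRBV29 (49.5%) and TRBV14 (55.6%), and in NOD 2 it was below TRBV3 (21.4%). No test was made, since each large clone is 1 event in 1 pool.

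**Figure D5:**
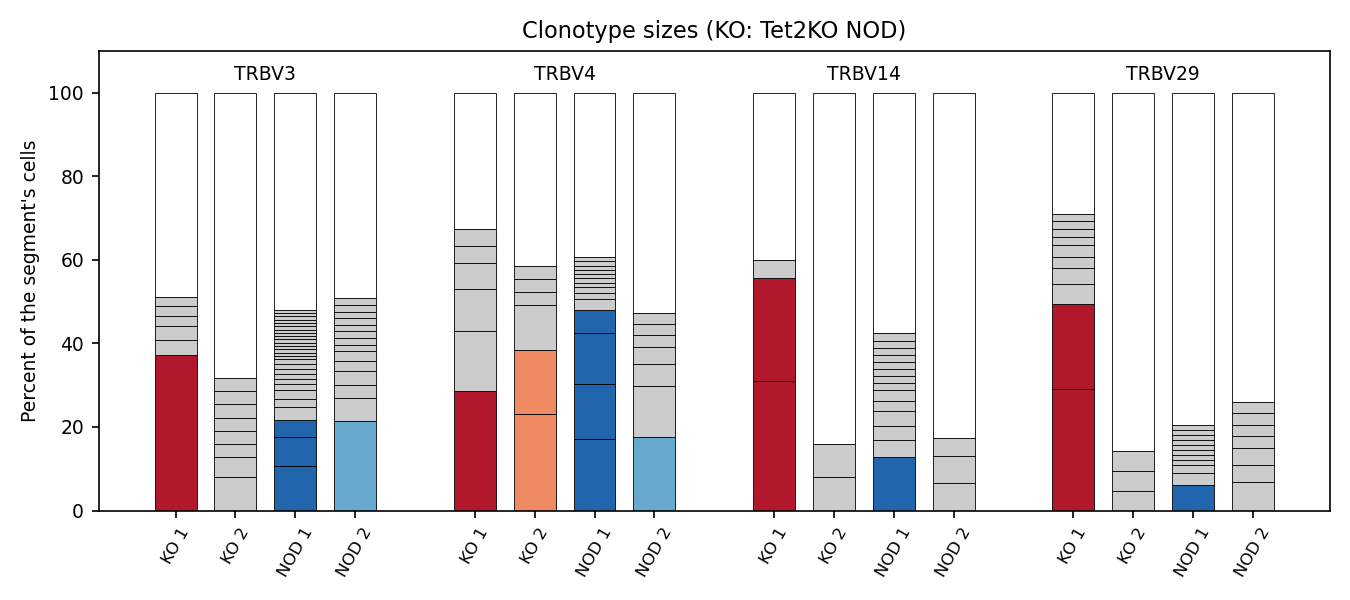
Stacked percent of each segment's paired cells by clonotype in each library, Tet2KO NOD (KO) left of NOD: a coloured block is 1 clonotype of 10 or more cells, a grey block 1 clonotype of 2 to 9 cells, and white the single-cell clonotypes. TRBV4 is the member with a coloured block in every library, and TRBV29 has 71.0% of its cells in expanded clonotypes in Tet2KO NOD 1.

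The largest clone of each member is shown with its beta CDR3, capitals as above. The TRBV3 clone was paired with TRAV9-1 and TRAJ53 and held 37.2% of that segment's cells in its library. The TRBV4 clone was paired with TRAV5-1 and TRAJ23 (17.2%), the TRBV14 clone with TRAV6D-6 and TRAJ15 (12.7%) and the TRBV29 clone with TRAV5-4 and TRAJ48 (29.0%).
TRBV3-TRBJ2-7, Tet2KO NOD 1, 32 cells: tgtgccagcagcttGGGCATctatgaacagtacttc
TRBV4-TRBJ1-1, NOD 1, 34 cells: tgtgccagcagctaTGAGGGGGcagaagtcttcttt
TRBV14-TRBJ2-7, NOD 1, 15 cells: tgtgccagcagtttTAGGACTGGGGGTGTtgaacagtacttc
TRBV29-TRBJ2-1, Tet2KO NOD 1, 31 cells: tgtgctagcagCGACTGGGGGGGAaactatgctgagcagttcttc
The TRBV4 clone keeps 14 germline bases, and the base inserted next is not the one that would complete the stop codon. The TRBV3 and TRBV29 clones ranked 2 and 3 by size in Tet2KO NOD 1, with 2.00% (Wilson 95% interval 1.42% to 2.80%) and 1.93% (1.36% to 2.73%) of its paired cells. Both are in the library in which TRBV29 took its high share of cells.

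In the other libraries the largest TRBV3 clones had 5 cells in Tet2KO NOD 2 (TRBJ1-2, TRAV16N with TRAJ37), 27 in NOD 1 (TRBJ2-1, TRAV14-3 with TRAJ43) and 27 in NOD 2 (TRBJ2-1, TRAV6N-7 with TRAJ28). For TRBV4 they had 14 cells in Tet2KO NOD 1 (TRBJ2-1, TRAV6-1 with TRAJ40), 15 in Tet2KO NOD 2 (TRBJ2-7, TRAV4-3 with TRAJ30) and 13 in NOD 2 (TRBJ1-2, TRAV6D-4 with TRAJ18). The TRBV4 clone of Tet2KO NOD 2 ranked 2 in its library. The largest TRBV14 clones had 14 cells in Tet2KO NOD 1 (TRBJ1-1, TRAV10N with TRAJ44), 2 in Tet2KO NOD 2 and 3 in NOD 2. The largest TRBV29 clones had 2 cells in Tet2KO NOD 2, 10 in NOD 1 (TRBJ2-2, TRAV16N with TRAJ34) and 5 in NOD 2 (TRBJ2-7, TRAV13-1 with TRAJ13). TRBV14 and TRBV29 had no clone above 5 cells in Tet2KO NOD 2 or NOD 2.

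Few member receptors recurred between pools. Of 952 distinct TRB CDR3 nucleotide sequences with their V and J segments, 4 were in more than 1 library (0.420%), 3 with TRBV3 and 1 with TRBV29, against 54 of 6936 over all TRBV (0.779%). With the alpha chain, 3 clonotypes recurred among 975, and 34 of 7143 did over all TRBV. The 3 are shown because the same nucleotides at both chains came from separate pools.
TRBV3-TRBJ2-5 with TRAV9-1 and TRAJ53, 5 cells in NOD 1 and 7 in NOD 2: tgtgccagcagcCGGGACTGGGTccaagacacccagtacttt
TRBV3-TRBJ1-1 with TRAV16N and TRAJ40, 1 cell in Tet2KO NOD 2 and 4 in NOD 2: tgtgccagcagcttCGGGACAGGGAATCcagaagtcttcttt
TRBV29-TRBJ2-2 with TRAV12-3 and TRAJ42, 1 cell in Tet2KO NOD 2 and 3 in NOD 2: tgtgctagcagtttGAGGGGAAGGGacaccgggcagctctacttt
The first was within 1 genotype and the other 2 crossed genotypes, both in set 2. Barcodes shared between libraries, given above, were few, and their part in this sharing was not tested.

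The cells left out for holding more than 1 TRB included pairs of chains that recurred. In NOD 1, 28 cells held both a TRBV3-TRBJ1-3 and a TRBV3-TRBJ2-1 chain, and all 28 had a TRAV6D-6 and TRAJ56 alpha chain. The first chain was also found without the second in 33 cells, 18 of them with the same alpha chain. The second was found without the first in 32 cells, 27 of them with TRAV14-3 and TRAJ43, and is the beta chain of the largest TRBV3 clonotype of that library.
TRBV3-TRBJ1-3, NOD 1: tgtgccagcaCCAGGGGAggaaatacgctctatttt
TRBV3-TRBJ2-1, NOD 1: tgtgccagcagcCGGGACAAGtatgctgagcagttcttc
Together 93 cells held 1 or both of these chains. Whether the 28 were doublets or cells with 2 beta chains was not tested.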

How the data were processed

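Single-cell T-cell receptor contigs were measured in 4 libraries. The deposited tables give counts of reads and of UMIs for each contig, its length in bases and, per the file headers, its flags, segment names and CDR3. Cell Ranger 7.0.1 and GRCm38 (mm10) are named in the submitters' processing notes, and the set of V(D)J segments used is not named in those notes. UMI counts, as deposited, served to pick the TRA of a cell with several and in an alternative. The contig length deposited by the authors was not used. Segment names are nearest matches, so near-identical TRAV copies were summed by family. PCR reads are not independent molecules, and intervals (Wilson, 95%) cover counting error only.

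Germline ends, positions and V regions came from RefSeq GRCm38, and inserted bases are those left after the longest match to V and J. Clonotype counts were tested with edgeR 4.0.16 in R 4.3.3 (quasi-likelihood, Benjamini-Hochberg), with segments kept when 2 or more libraries had a count of 10 or more and partners at 20 clonotypes over the members. The SE given with an edgeR log2 fold change is its absolute value divided by the square root of the F statistic. CDR3 measures were tested with limma 3.58.1 over TRBV with at least 40 clonotypes, each library's other TRBV subtracted, weighted by clonotypes. Single values used exact two-sided permutation tests over libraries. The scripts were tested on simulated data. DESeq2 1.42.0, TMM factors, no filter, other clonotype definitions, a minimum of 3 UMIs, thinning and leaving out each library were the alternatives. The named partners were the 3 most used of each kind, those passing a test, and lists of known pairings, and the named clones the largest per library and those shared. Members and lists were chosen with earlier results of these data known. Nothing in the labels says that pools were made independently beyond their set numbers. The exact tests rest on the spread between these pools. By contrast, limma shares variance over all TRBV segments and edgeR shares dispersion over all rows of a fit. The common dispersion was 0.00228 for usage and 9.77e-05 for partners. The limma and edgeR p-values therefore do not measure the spread of a single segment between pools.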

Additional observations from a re-analysis of the deposited data

Results flagged for a closer look

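The TRB CDR3 of TRBV14 was shorter than that of the other TRBV in both Tet2KO NOD libraries, by 0.534 and 0.381 residues, and longer in both NOD libraries, by 0.0494 and 0.0599. The means were -0.457 in Tet2KO NOD and 0.0546 in NOD, a difference of -0.512 residues. TRBV3 had more inserted bases than the other TRBV in both Tet2KO NOD libraries, by 0.24 and 1.82, and fewer in both NOD libraries, by 0.55 and 0.0387. The means were 1.03 in Tet2KO NOD and -0.294 in NOD, a difference of 1.32 bases. In both cases every library of one genotype lay on the opposite side of 0 from those of the other, and the difference itself was not tested. These cases were picked for that pattern among 16 combinations of a member and a measure. How many of all TRBV change side in this way was not computed. In the means themselves, 45% of 20 TRBV did not overlap between genotypes in length and 36.8% of 19 TRBV in inserted bases.

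Cells with 2 TRB chains entered no comparison. Beside the TRBV3 pair in 28 cells of NOD 1, a TRBV1-TRBJ2-3 and a TRBV3-TRBJ1-4 chain occurred together in 13 cells of NOD 1 and in 0 cells apart, and a TRBV12-2+TRBV13-2 chain and a TRBV3 chain, both with TRBJ2-7, occurred together in 7 cells of Tet2KO NOD 1 and in 0 apart. A TRBV12-2-TRBJ2-1 and a TRBV4-TRBJ2-7 chain occurred together in 6 cells of NOD 1, the first alone in 8 and the second alone in 24, which is the TRAV16-TRAJ42 clone of 24 cells.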

How the results depend on the processing

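Of 450 values of 40 results under alternatives, 389 kept their direction and side of the threshold (or stayed within the spread), 17 lost the threshold, 1 gained it, 23 moved and 20 turned sign, and the causes were not tested. Results that passed a test kept their direction under every alternative run. Partners called against the other TRBV numbered 2, 1 with TRB alone, 0 with each cell once and 0 to 2 leaving out a library. Between members they numbered 2, 0 with each cell once and 0 to 3 leaving out a library. Members called were 1 for inserted bases and 1 for hydropathy, each 0 with each cell once, with inserted bases 0 to 1 leaving out a library. For expansion the count was 0, and 1 with each cell once (TRBV4). The Tet2KO NOD minus NOD share was 0.781 points for TRBV3 (0.116 with each cell once, 0.915 within set 1, 0.647 within set 2) and 0.453 for TRBV29 (1.88 with each cell once). For TRBV14 it was -0.0256 (-0.102 with TRB alone, 0.311 each cell once, 0.0565 with cells of over 1 TRB kept, -0.141 at 3 UMIs, 0.0544 within set 1, -0.106 within set 2). Sign turned only for values that missed the threshold: TRBV14 usage (log2 0.21 each cell once, 0.042 with cells of over 1 TRB kept, 0.011 without shared clonotypes, -0.0581 to 0.0276 leaving out a library), TRBV4 usage (-0.0938 to 0.347 leaving out a library), length of TRBV3 (-0.0796 each cell once, -0.0175 to 0.223 leaving out a library), TRBV4 (-0.228 to 0.0568) and TRBV14 (0.0196 each cell once), inserted bases of TRBV3 (-0.389 each cell once, -0.279 to 0.579 leaving out a library), hydropathy of TRBV4 (-0.144 each cell once) and TRBV14 (-0.222 to 0.0176), and expansion as a fraction for TRBV3 (-0.00588 at 3 or more cells, -0.00223 thinned) and TRBV14 (0.00665 with TRB alone, -0.0576 to 0.00453 leaving out a library). Non-overlapping members and measures numbered 9, and 4 with TRB alone. Whether pools of the same set number belong together cannot be told from these counts. The correlation of their deviations was -0.167 over 124 segments, where counting noise could hide a shared set effect. Usage had 1 segment called, 0 with the replicate block and 0 with the sets crossed, and 0 members in each. The partner calls were the same 4 with no replicate block, with an adjusted p of 0.0114 against the other TRBV. The 2 pools a genotype, the unknown number of cells per mouse and the small counts per library (21 to 159 clonotypes of a member) limit what could be detected, and thinning left 18 TRBV to test.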

Other observations

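UMIs per contig were highest for TRBV3 and lowest for TRBV29 among the 4 segments in every library. The median productive TRBV3 contig had 13 UMIs in each Tet2KO NOD pool, against 14 and 18.5 in NOD pools, and the median TRBV29 contig had 8 and 6 in Tet2KO NOD pools, against 8 and 11 in NOD pools. The other TRBV had 9 and 11 in Tet2KO NOD pools, against 10 and 13 in NOD. TRBV3 also had the largest share of contigs in cells with more than 1 TRB among the 4 over all libraries, and whether the 2 are related was not tested.

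A D segment was named in few contigs. TRBD1 was named for 24.3% of TRBV29 clonotypes, 15.3% of TRBV3, 12.4% of TRBV4, 13.8% of TRBV14 and 15.3% of the other TRBV. No D segment was named for 72.5% to 80.2% of the clonotypes of each member.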
